A study of Homo sapiens with 4 samples.

Results

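The release of paused RNA polymerase II is controlled by a small group of proteins, and 9 of their genes were followed here by symbol among the 35371 gene symbols of the deposited table. They are the bromodomain proteins BRD2 and BRD3, the P-TEFb subunits CDK9, CCNT1 and CCNT2, the 7SK particle proteins HEXIM1, LARP7 and MEPCE, and the super elongation complex scaffold AFF4. They were chosen by function, with earlier results of these data known. Transcript levels had been measured in A2780, a human ovarian cancer line long kept in culture, with 2 libraries from cells given GD-07 and 2 from control cells. GD-07 is described in the series text as a small-molecule inhibitor of MYC, a transcription factor that drives growth genes. All cells were kept as flat cultures in DMEM with serum and antibiotics. The labels state neither dose nor treatment time, and the controls carry no treatment in the sample labels, whereas the series text speaks of a vehicle.

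Soon after initiation, RNA polymerase II pauses, held by the factors DSIF and NELF. P-TEFb, the kinase CDK9 bound to cyclin T1 or T2, phosphorylates the polymerase and both factors and lets it proceed. Much of the cell's P-TEFb is kept inactive by HEXIM1 on the noncoding 7SK RNA, whose ends are protected by MEPCE and LARP7. BET proteins bind acetylated histones near promoters, and AFF4 brings P-TEFb into the super elongation complex. MYC is known to recruit P-TEFb to promoters, and HEXIM1 is often used as a transcript that responds to BET inhibitors in other cells.

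The values are TPM, abundances scaled to transcript length and library total that keep no read depth. No counting interval or detection floor can therefore be given, and higher or lower means relative to the other transcripts of a library. The columns summed to between 912781 and 918646 TPM. Pearson r across kept genes on the log2 scale was 0.982 for the GD-07 pair and 0.993 for the control pair, and 0.983 between GD-07 replicate 1 and control replicate 2. GD-07 replicate 2 stood apart, with 14683 symbols listed at 0, whereas GD-07 replicate 1 had 12346 and the controls had 11598 and 11688. Of 8 epithelial and ovarian carcinoma markers, 6 lay under 1 TPM in every library, PAX8, WT1, KRT7 and MUC16 among them. KRT18, a keratin of simple epithelia, had 5.82 and 4.83 TPM with GD-07 and 4.40 and 4.596 TPM in controls, and the epithelial adhesion gene EPCAM had 2.12 and 4.29 TPM with GD-07 and 1.41 and 1.48 TPM in controls, so the labelled origin shows only weakly in these markers. Of 10 markers of other cell types, 5 lay under 1 TPM throughout. The collagen gene COL1A1, a fibroblast marker, was the highest of all 18, with 17.9 and 30.04 TPM with GD-07 and 39.0 and 31.1 TPM in controls, and LUM had 0.923 and 1.07 TPM with GD-07 and 1.65 and 1.98 TPM in controls. COL1A1 and LUM lay lower with GD-07 without overlap, and EPCAM and KRT18 higher, where 55.8% of all kept genes did not overlap. None of these markers passed (limma adjusted p = 0.184 for COL1A1, 0.189 for LUM, 0.141 for EPCAM and 0.589 for KRT18). Their part in the results was not tested. A bulk library cannot tell fewer cells expressing a gene from less RNA per cell. Nothing says that the replicates were separate cultures, and the spread behind every p-value may thus be technical.

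All 9 members passed the filter on low values, 1 TPM or more on average, and none passed the test between groups. The test was limma on log2(TPM + 1) over all 13063 kept genes, and a gene was called at a p under 0.05 after Benjamini-Hochberg adjustment. It called 2.02% of all kept genes higher and 3.19% lower with GD-07, 5.21% in all, so 0 of 9 members is close to the general share. At an unadjusted p under 0.05 there were 3 members of 9, against 24.8% of all kept genes. HEXIM1 was on the higher side, with 10.1% of kept genes, and CDK9 and MEPCE were on the lower side, with 14.7%. GD-07 and control values did not overlap for 5 of the 9 members, against 55.8% of all kept genes. Of these 5, BRD2 and HEXIM1 were higher with GD-07, as were 25.3% of kept genes, and CDK9, LARP7 and MEPCE were lower, as were 30.5%. The median log2 fold change was -0.16 over the members and -0.04 over all kept genes. Of the members 2 were positive and 7 negative, against 6037 positive and 7026 negative of all 13063 kept genes.

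**Figure D1:**
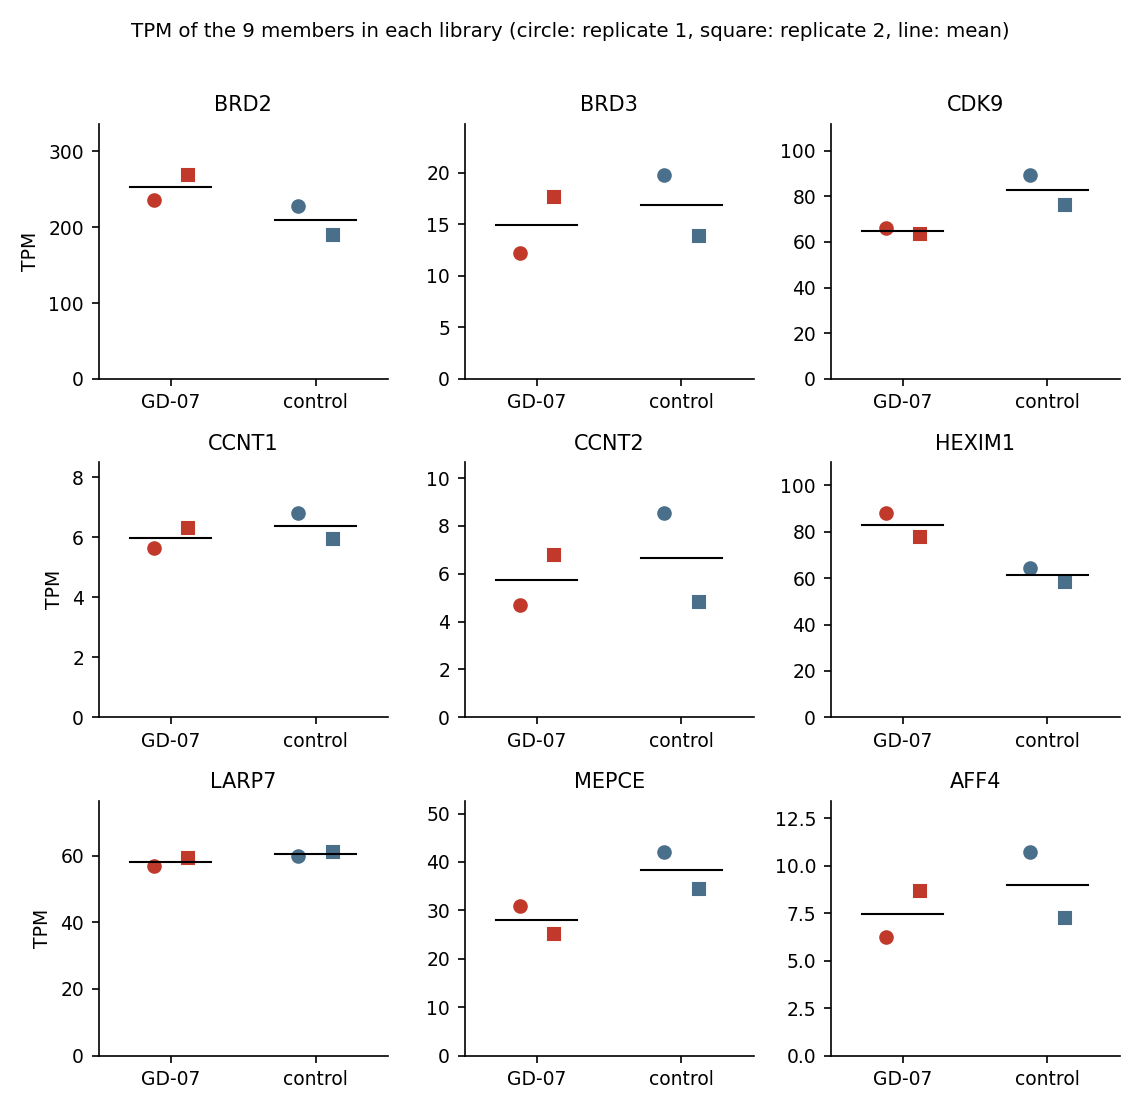
TPM of each of the 9 members in the 4 libraries, with GD-07 left of control in each panel, circles for replicate 1, squares for replicate 2 and a line at the mean of 2 libraries. The groups do not overlap for BRD2, CDK9, HEXIM1, LARP7 and MEPCE, and for BRD3, CCNT1, CCNT2 and AFF4 the GD-07 and control values interleave.

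HEXIM1, the inhibitor that holds P-TEFb on 7SK RNA, had 88.0 and 77.7 TPM in GD-07 replicates 1 and 2, against 64.3 and 58.4 TPM in control replicates 1 and 2. Both GD-07 libraries lay above both controls. The means were 82.9 ± 7.33 TPM with GD-07 and 61.4 ± 4.17 TPM in controls (SD, n = 2 each). On the log2(TPM + 1) scale HEXIM1 differed by 0.43 ± 0.15 (error: limma's standard error) with an adjusted p = 0.121 in limma and an unadjusted p = 0.0189. Its 95% interval ran from 0.09 to 0.76, that is from 1.06-fold to 1.70-fold. HEXIM1 was the only member to pass under any alternative setting, and did so in a single fit, without GD-07 replicate 2 (log2 fold change 0.51, limma adjusted p = 0.0488). Over all 13 alternatives its adjusted p ranged from 0.0488 to 0.511 and its log2 fold change from 0.34 to 0.51. Its paralog HEXIM2, which can also inhibit P-TEFb, had 46.2 and 34.7 TPM with GD-07 and 31.9 and 35.2 TPM in controls, and these overlap (log2 fold change 0.25 ± 0.18, limma adjusted p = 0.42).

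HEXIM1 (ENSG00000186834) occupies chromosome 17, 45148502 to 45152101, plus strand (GRCh38), and its coding transcript in GENCODE 29 has 1 exon and 3600 nt. The 250 bases before its RefSeq start (GRCh38.p14, chr17:45148225-45148474, plus strand) are shown because HEXIM1 was the member with the smallest p. The capitals mark TATAAA, the letters of a TATA box, an element that positions the polymerase at some promoters.
HEXIM1 upstream: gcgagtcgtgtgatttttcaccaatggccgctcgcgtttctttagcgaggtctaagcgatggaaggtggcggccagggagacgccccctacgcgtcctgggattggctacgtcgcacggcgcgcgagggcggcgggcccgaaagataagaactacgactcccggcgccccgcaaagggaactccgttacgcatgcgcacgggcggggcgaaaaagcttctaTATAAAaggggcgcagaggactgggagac
The motif begins 29 bases upstream of the start. TATAAA, searched on both strands, was found in 11.5% of the 35116 RefSeq windows of 300 bases around gene starts, and among the 16 windows of the 9 members in that of HEXIM1 alone.

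MEPCE, the enzyme that puts a methyl cap on 7SK RNA, had 30.9 and 25.2 TPM in GD-07 replicates 1 and 2, against 42.1 and 34.4 TPM in control replicates 1 and 2. Both GD-07 libraries lay below both controls. The log2 fold change was -0.43 ± 0.18 (limma adjusted p = 0.173, unadjusted p = 0.0372), with a 95% interval from -0.83 to -0.03. By a narrow margin over HEXIM1 this was the largest difference among the 9 members in size. The order turned after median-ratio scaling (-0.40 for MEPCE and 0.46 for HEXIM1) and after quantile normalization (-0.36 and 0.48). With a pseudocount of 5 TPM (-0.39 and 0.40), without GD-07 replicate 2 (-0.29 and 0.51) and without control replicate 1 (-0.29 and 0.49) it turned too. The adjusted p was 0.0549 without GD-07 replicate 1 and reached 0.747 without control replicate 1. By distance between centred log2 profiles over the 4 libraries, the 3 genes nearest to MEPCE among 13062 were PSMC2, a proteasome ATPase, FCF1, a factor of small ribosomal subunit assembly, and TIRAP, a Toll-like receptor adaptor. Their distances were 0.0324, 0.0328 and 0.0345 log2 units, and their log2 fold changes were -0.43, -0.42 and -0.47. With only 4 libraries many genes follow the same order.

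LARP7, which binds the end of 7SK RNA and stabilises it, varied least. It had 56.7 and 59.4 TPM with GD-07, against 59.7 and 61.2 TPM in controls. The GD-07 values lay just below the control values, and the log2 fold change was -0.06 ± 0.14 (limma adjusted p = 0.841), with a 95% interval from -0.38 to 0.26. After quantile normalization its sign turned, to 0.01. MEPCE (ENSG00000146834) occupies chromosome 7, 100428790 to 100434126, plus strand, and LARP7 (ENSG00000174720) chromosome 4, 112636964 to 112657592, plus strand, both in GRCh38. The 7SK RNA itself was not analysed here.

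CDK9, the kinase of P-TEFb, had 66.0 and 63.6 TPM in GD-07 replicates 1 and 2, against 89.5 and 76.1 TPM in control replicates 1 and 2. The GD-07 libraries lay close together and below both controls. The means were 64.8 ± 1.74 TPM with GD-07 and 82.8 ± 9.44 TPM in controls (SD, n = 2 each). The log2 fold change was -0.34 ± 0.15 (limma adjusted p = 0.195, unadjusted p = 0.0473), with a 95% interval from -0.68 to -0.01. It stayed negative in all 13 alternatives, from -0.46 to -0.23, without passing in any. CDK9 (ENSG00000136807) occupies chromosome 9, 127785679 to 127790787, plus strand in GRCh38.

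The T cyclins were far less abundant than their kinase. CCNT1 had 5.66 and 6.31 TPM with GD-07 and 6.81 and 5.94 TPM in controls, and CCNT2 had 4.68 and 6.79 TPM with GD-07 and 8.53 and 4.81 TPM in controls. For both cyclins the GD-07 and control values interleaved, with control replicate 1 highest and GD-07 replicate 1 lowest. On the log2 scale CCNT1 differed by -0.08 ± 0.20 and CCNT2 by -0.16 ± 0.28 (limma adjusted p = 0.845 and 0.757), with 95% intervals from 0.694-fold to 1.29-fold for CCNT1 and from 0.579-fold to 1.38-fold for CCNT2. Summed, the cyclins reached 11.7 ± 1.95 TPM with GD-07 and 13.0 ± 3.24 TPM in controls (SD, n = 2 each). CDK9 TPM was 6.39 and 4.85 times this sum in GD-07 replicates 1 and 2, and 5.83 and 7.07 times in control replicates 1 and 2. CCNT1 (ENSG00000129315) occupies chromosome 12, 48688458 to 48716998, minus strand, and CCNT2 (ENSG00000082258) chromosome 2, 134918235 to 134959342, plus strand.

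BRD2 was the most abundant member, with 236 and 269 TPM in GD-07 replicates 1 and 2, against 228 and 190 TPM in control replicates 1 and 2. The GD-07 values were higher than both controls, by a small margin for GD-07 replicate 1. The log2 fold change was 0.28 ± 0.16 (limma adjusted p = 0.309), with a 95% interval from 0.947-fold to 1.55-fold, and it was 0.15 without control replicate 2 and 0.41 without control replicate 1. Its relative BRD3 had 12.2 and 17.6 TPM with GD-07 and 19.8 and 13.9 TPM in controls, which overlap, and its log2 fold change was -0.17 ± 0.23 (limma adjusted p = 0.701, 95% interval from 0.618-fold to 1.29-fold). BRD2 (ENSG00000204256) occupies chromosome 6, 32968660 to 32981505, plus strand, and BRD3 (ENSG00000169925) chromosome 9, 134030305 to 134068535, minus strand.

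AFF4, on which the super elongation complex is built, had 6.26 and 8.66 TPM with GD-07 and 10.8 and 7.27 TPM in controls. The groups overlap, and the log2 fold change was -0.24 ± 0.24 (limma adjusted p = 0.585, 95% interval from 0.582-fold to 1.24-fold). AFF4 (ENSG00000072364) occupies chromosome 5, 132875379 to 132963634, minus strand, and has up to 21 exons in a coding transcript.

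**Figure D2:**
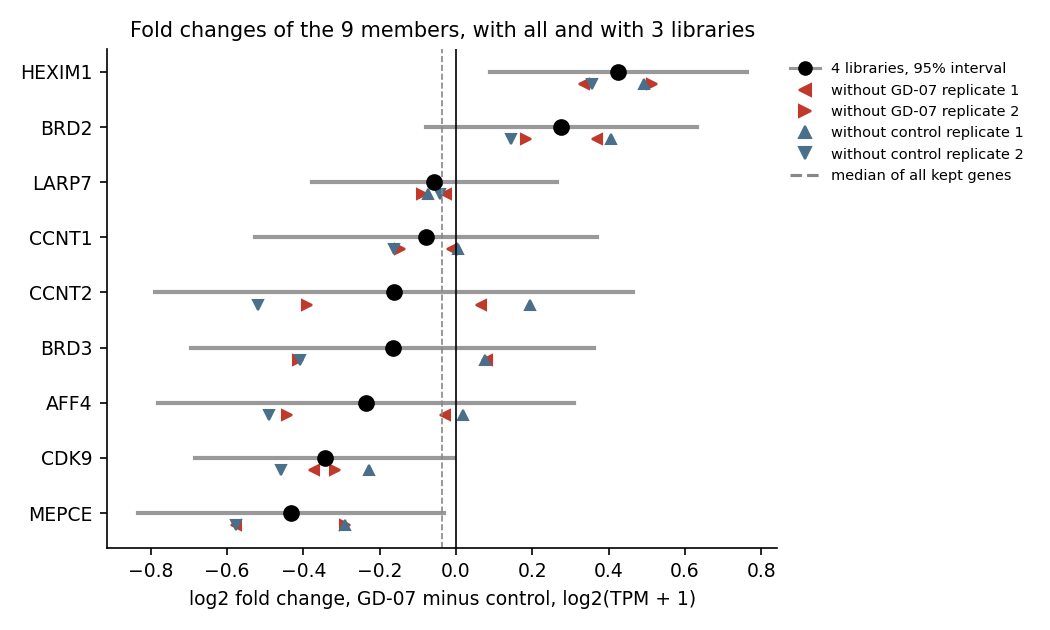
Log2 fold change of each member (GD-07 minus control, log2(TPM + 1)) with all 4 libraries (black, bar: 95% interval) and with each library left out in turn (triangles), and the median of all kept genes (dashed). HEXIM1 and BRD2 stay above 0 and CDK9, MEPCE and LARP7 below it in these fits, whereas BRD3, CCNT1, CCNT2 and AFF4 move to either side of 0.

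With GD-07 the mean levels ran from BRD2 (253 TPM) through HEXIM1 (82.9), CDK9 (64.8), LARP7 (58.1), MEPCE (28.1), BRD3 (14.9), AFF4 (7.46) and CCNT1 (5.98) to CCNT2 (5.74). In controls they ran from BRD2 (209 TPM) through CDK9 (82.8), HEXIM1 (61.4), LARP7 (60.4), MEPCE (38.3), BRD3 (16.8), AFF4 (9.01) and CCNT2 (6.67) to CCNT1 (6.38). In controls HEXIM1 overlapped with LARP7, AFF4 with CCNT2 and CCNT2 with CCNT1, and with GD-07 CCNT1 overlapped with AFF4 and CCNT2, while the other neighbours in each order were apart. With GD-07, HEXIM1 stood above CDK9 in both libraries, whereas CDK9 stood above HEXIM1 in both controls.

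Ratios between members within a library do not depend on how that library was scaled. HEXIM1 to CDK9 was 1.33 and 1.22 in GD-07 replicates 1 and 2, against 0.719 and 0.768 in control replicates 1 and 2. The groups were apart, with a difference of 0.78 in the log2 ratio that ran from 0.72 to 0.84 when any library was left out. HEXIM1 to the summed T cyclins was 8.51 and 5.93 with GD-07 and 4.19 and 5.43 in controls, also apart but less so, with a difference of 0.57 in the log2 ratio (0.31 to 0.84 when any library was left out). BRD2 to BRD3 was 19.3 and 15.3 with GD-07 and 11.5 and 13.7 in controls, a difference of 0.45 (0.28 to 0.62). LARP7 to MEPCE was 1.83 and 2.36 with GD-07 and 1.42 and 1.78 in controls, a difference of 0.39 (0.21 to 0.57). CCNT1 to CCNT2 and AFF4 to CDK9 overlapped between groups, with differences of 0.09 and 0.08 in the log2 ratio. An exact two-sided permutation test gave p = 0.33 for the 4 ratios that did not overlap, which is the smallest that 2 libraries against 2 allow, and p = 1.0 for the other two, so these ratios describe the 4 libraries only.

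**Figure D3:**
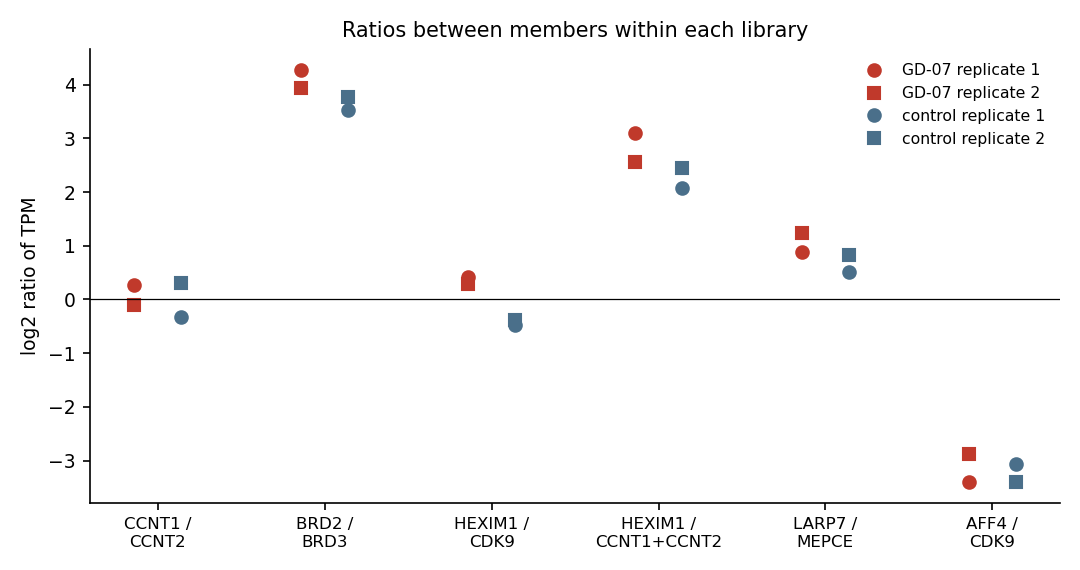
Log2 ratio of TPM between members in each library, with GD-07 (red) left of control (blue), circles for replicate 1 and squares for replicate 2. HEXIM1 over CDK9 is above 0 in both GD-07 libraries and below 0 in both controls, and CCNT1 over CCNT2 and AFF4 over CDK9 overlap.

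Several members differed between replicates in the same way. BRD3, CCNT1, CCNT2 and AFF4 were higher in GD-07 replicate 2 than in GD-07 replicate 1, by 0.49, 0.14, 0.45 and 0.41 on the log2(TPM + 1) scale, and higher in control replicate 1 than in control replicate 2, by 0.48, 0.17, 0.71 and 0.51. BRD2, whose groups did not overlap, differed likewise, by 0.19 and 0.26, more than CCNT1. BRD3, CCNT1, CCNT2 and AFF4 also have the longest coding transcripts of the members in GENCODE 29, from 5652 to 9552 nt, against 2332 to 4894 nt for the other 5. The same replicate differences moved with length over all genes. Kept genes were put into 4 bins of about equal size by coding transcript length. In the bin with the longest (2896 genes, 5043 to 34526 nt) the median difference was 0.22 between the GD-07 replicates and 0.23 between the controls. In the shortest bin (2903 genes, 207 to 2123 nt) the median differences were -0.08 and -0.03, in the same order. Across 11583 genes Pearson r with log2 length was 0.32 for the GD-07 pair, 0.42 for the control pair and -0.05 for GD-07 minus control, and genes are not independent replicates. BRD3, CCNT2 and AFF4 lay above the medians of their length bin in both pairs, and CCNT1 below. The part of length in these differences was not tested.

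**Figure D4:**
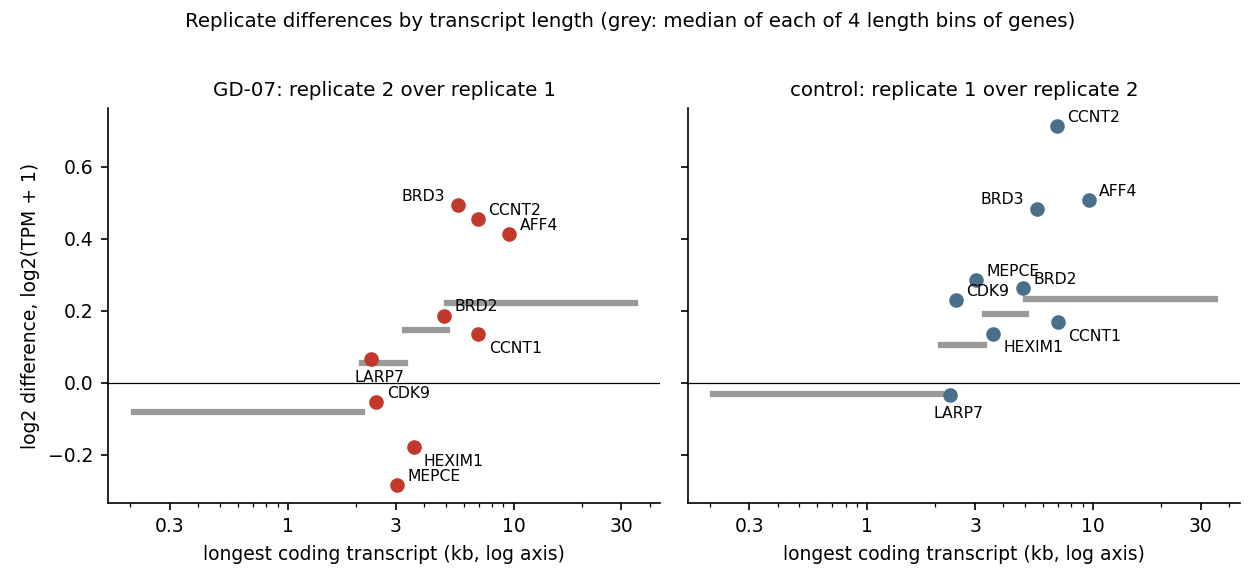
Log2 difference between replicates against the longest coding transcript of each member (kb, log axis), for GD-07 (left) and control (right), with grey bars at the median of each of 4 length bins of kept genes. BRD3, CCNT2 and AFF4 lie highest in both panels, and HEXIM1, MEPCE and CDK9 lie below 0 in the GD-07 panel alone.

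Some members share bases with a gene on the other strand, and whether counting used strand is not given in the sources used here. BRD3 overlaps BRD3OS by 4362 bases, and BRD3OS, listed under an older symbol, had 18.4 and 19.3 TPM with GD-07 and 23.2 and 21.2 TPM in controls, above BRD3 in all 4 libraries. BRD2 overlaps HLA-DMA by 435 bases, MEPCE overlaps ZCWPW1 by 203 and LARP7 overlaps ZGRF1 by 32. Those 3 neighbours lay between 2.59 and 19.5 TPM. HEXIM1 overlaps an antisense transcript, AC138150.1, over 1702 bases, which was not analysed here. Antisense transcripts likewise not analysed overlap BRD3 (AL445931.1, 4516 bases), LARP7 (AC106864.1, 3576), BRD2 (AL645941.3, 789) and CCNT2 (CCNT2-AS1, 476). AFF4 overlaps the pseudogene AC010240.2 by 2119 bases, which had at most 0.0768 TPM. The part of shared reads in the values of these members was not tested.

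MYC binds with MAX to the E-box letters CACGTG, and 3 of the 9 members hold them near a RefSeq start. They are shown with the letters in capitals within 30 bases of the gene's own strand (GRCh38.p14), on chr12:48716924-48716953 for CCNT1, chr5:132963671-132963700 for AFF4 and chr7:100429311-100429340 for MEPCE.
CCNT1: ccgcccaacggtCACGTGacgcgcctgcgt
AFF4: gcgcagaggcatCACGTGacgccccgcacc
MEPCE: cgccagtttcagCACGTGctgcctctaccc
The motif begins 234, 54 and 124 bases upstream of the window's own RefSeq start in CCNT1, AFF4 and MEPCE. It lies in 1 of 2 windows for CCNT1 and 1 of 3 for MEPCE. For CCNT1 and MEPCE the stretch shown falls inside the GENCODE span of the gene given above, and only for AFF4 does it lie upstream of that span. CACGTG, which reads the same on both strands, was found in 7.26% of the 35116 windows and in 8.77% of the 27305 genes that have them. The log2 fold changes of these 3 members were -0.08, -0.24 and -0.43, and a match describes the sequence only.

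Among 71 further genes of transcription elongation and of known responses to BET or CDK9 inhibitors, 67 were kept, of which 1 rose, 3 fell and 63 did not pass, with a median log2 fold change of -0.09. Of 6 kept super elongation partners none passed. EAF2, an ELL-associated factor, had the smallest p, with 0.46 ± 0.21 on the log2 scale (limma adjusted p = 0.204), followed by ELL3 at 0.29 ± 0.21 (limma adjusted p = 0.43). None of the 6 DSIF and NELF subunits passed, 5 of them had negative values, and the list median was -0.31. The NELF subunits NELFCD and NELFA stood at log2 fold changes of -0.33 ± 0.16 each (limma adjusted p = 0.23 for both). NELFCD was -0.22 without GD-07 replicate 2, and NELFA was -0.18 without control replicate 1.

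Of 11 genes of the PAF1 complex and other polymerase partners, SSRP1 fell and 10 did not pass. SSRP1, a subunit of the histone chaperone FACT, had 326 and 270 TPM with GD-07, against 488 and 465 TPM in controls. Its log2 fold change was -0.68 ± 0.16 (limma adjusted p = 0.0427), and its call ended without control replicate 1 (adjusted p = 0.27) or 2 (0.13), without limma's trend (0.0792) and under median-ratio scaling (0.0846). RTF1, a PAF1-associated factor named after its values were seen, had 63.7 and 67.1 TPM with GD-07 and 41.8 and 46.5 TPM in controls (log2 fold change 0.56 ± 0.15, limma adjusted p = 0.0606). None of 11 other transcription kinases, cyclins and their partners passed, and MNAT1 and CDK7 of the CDK-activating kinase both stood at -0.20 ± 0.14 on the log2 scale (limma adjusted p = 0.408 for MNAT1 and 0.433 for CDK7).

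Of 9 kept genes of HEXIM2 and other reported binders or releasers of 7SK, DDX21 fell and 8 did not pass. DDX21, a helicase reported to release P-TEFb from 7SK that also acts in ribosome production, had 25.03 and 27.5 TPM with GD-07, against 48.8 and 40.3 TPM in controls. Its log2 fold change was -0.74 ± 0.17 (limma adjusted p = 0.0409), and its call ended without control replicate 1 (adjusted p = 0.283) and without limma's trend (0.0703). None of 12 RNA polymerase II subunits passed, with a median log2 fold change of -0.09. POLR2E had one of -0.55 ± 0.18 (limma adjusted p = 0.103) and passed without GD-07 replicate 1 (log2 fold change -0.79, limma adjusted p = 0.0025). POLR2G had one of 0.31 ± 0.15 (limma adjusted p = 0.225).

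Of 5 transcripts reported to rise with BET inhibitors in other cells, SERPINI1 rose and 4 did not pass, and the list median was 0.01. The histone genes HIST2H2BF and HIST1H2BK stood at log2 fold changes of -0.87 ± 0.29 and -0.26 ± 0.14 (limma adjusted p = 0.105 and 0.295). HIST2H2BF was low throughout, with 1.16 and 0.25 TPM with GD-07 and 2.31 and 1.72 TPM in controls. HIST2H2BE was low as well, between 2.23 and 2.46 TPM. HIST2H2BE stood at 0.01 ± 0.21, and ZCCHC24 on the higher side at 0.59 ± 0.20 (limma adjusted p = 0.984 and 0.114). SERPINI1, which encodes the protease inhibitor neuroserpin, had 2.89 and 4.15 TPM with GD-07, against 0.474 and 0.401 TPM in controls. All 4 values are low, and the log2 fold change of 1.64 ± 0.23 (limma adjusted p = 0.0163) became 2.73 with a pseudocount of 0.1 TPM and 0.64 with 5 TPM. Of 7 short-lived transcripts reported to fall with CDK9 inhibitors, MYC fell and 6 did not pass, and the list median was -0.05. Log2 fold changes were positive for 3 of the 7 and negative for 4. XIAP stood at 0.46 ± 0.19 and CCND1 at -0.54 ± 0.16 on the log2 scale (limma adjusted p = 0.178 and 0.0842). MYC had 29.1 and 23.6 TPM with GD-07, against 86.0 and 67.5 TPM in controls (log2 fold change -1.50 ± 0.18, limma adjusted p = 0.0109).

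**Figure D5:**
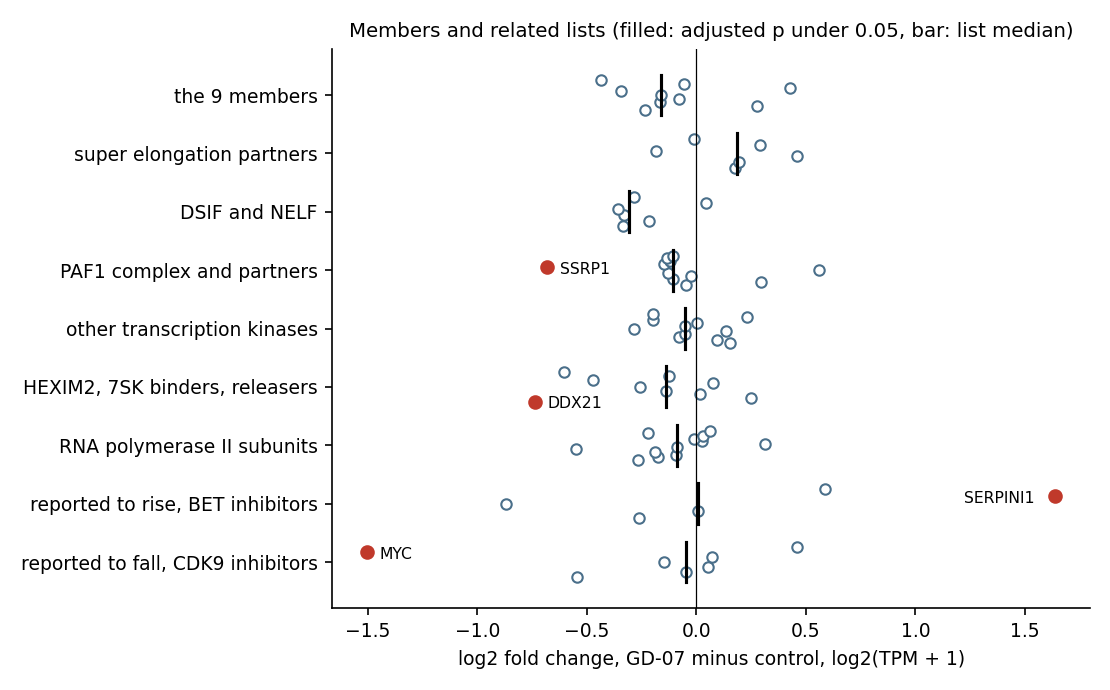
Log2 fold change (GD-07 minus control, log2(TPM + 1)) of the 9 members and of each further list, 1 point per kept gene, filled where the limma adjusted p is under 0.05, with a bar at the list median. The filled points are SSRP1, DDX21 and MYC on the lower side and SERPINI1 on the higher side, and no member is filled.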

How the data were processed

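The authors deposited TPM values per gene symbol for 4 libraries of polyadenylated RNA read from both ends. The submitters' processing notes name Subread, kallisto, GRCh38 and limma 3.60.4, and the role of each is not given in the sources used here. After a filter at 1 TPM on average, which kept 13063 genes, log2(TPM + 1) values were fitted with limma 3.58.1 under R 4.3.3 (eBayes with an intensity trend, two-sided, Benjamini-Hochberg over all kept genes). The pseudocount understates changes of low genes. The fit was tested on simulated data. Intervals are 95% from limma's moderated standard errors, unadjusted. The members and lists were chosen with earlier results of these data known. Genes named by rule are all members and the 3 genes nearest in profile to the member with the largest change. From each further list they are up to 4 that passed, by size of change, or, where none did, the 2 of smallest p. HEXIM2, RTF1, HIST2H2BE, HIST2H2BF, HIST1H2BK, ZCCHC24, XIAP, CCND1, the cell markers and the overlapping neighbours were named outside this rule. RefSeq promoter windows hold 300 bases, 250 of them before the start, and all 9 members matched. GENCODE 29 gave coordinates.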

Additional observations from a re-analysis of the deposited data

How the results depend on the processing

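No member passed in 12 of the 13 alternatives, and 1, HEXIM1, passed in a fit that left out a library, so members called higher ranged from 0 to 1 there. Over all genes limma called 264 higher and 417 lower, against 158 and 227 without the trend and 383 and 395 after quantile normalization, where the share of higher calls was larger. With no filter none of 26773 genes passed in limma (0 higher and 0 lower, although 3970 had an unadjusted p under 0.05), so SSRP1, DDX21, SERPINI1 and MYC then did not pass either. With 1 library left out the calls ran from 150 to 874 higher and from 160 to 1343 lower, and the lone library of a group is then assumed to vary like the other pair. The labels' numbers gave no pairing (deviations of same-numbered libraries correlated at r = -0.28). With the replicate block 320 were higher and 592 lower, and with crossed pairs, chosen after seeing the data, 1198 and 1736, EAF2 and POLR2E then among them. No member passed in either paired fit. With 1 library left out, log2 fold changes ran from -0.41 to 0.081 for BRD3, from -0.16 to 0.0066 for CCNT1, from -0.52 to 0.20 for CCNT2 and from -0.49 to 0.018 for AFF4. Log2 ratios then ran from -0.22 to 0.41 for CCNT1 to CCNT2 and from -0.18 to 0.35 for AFF4 to CDK9. LARP7 reversed to 0.012 after quantile normalization. The causes were not tested. SERPINI1 was not kept with a filter at a mean of 5 TPM. Depth is unknown, so what it limits could not be given.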
